A study of Mus musculus with 5 samples.

Results

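D-type cyclins, the kinases that they activate and the inhibitors of those kinases decide whether a cell in G1 phase goes on to copy its DNA, and 9 of their genes are described here in mouse natural killer (NK) cells that lack the transcription factor MYC. The genes were taken by symbol: the cyclins Ccnd1, Ccnd2 and Ccnd3, the kinases Cdk4 and Cdk6, the KIP inhibitors Cdkn1a (p21) and Cdkn1b (p27), and the INK4 inhibitors Cdkn2c (p18) and Cdkn2d (p19). All 9 were among the 13004 genes of the deposited table, and all 9 passed the filter on low values with 11190 genes in all. NK cells, innate lymphocytes that kill infected and transformed cells, had been sorted from spleen as live CD3-NK1.1+DX5+ cells. The 2 MycKO libraries (replicates 5 and 6) came from Mycdelta/delta/Ncr1Cre animals, in which Cre recombinase under Ncr1 control removes Myc in cells that express NKp46. The 3 control libraries (replicates 1, 2 and 3) came from Mycf/f animals with loxP-flanked Myc. Their labelled genotype names no Cre, so Cre and the loss of Myc cannot be told apart. All animals were 8-week C57BL/6 mice. Whether a library stands for a single mouse is not stated. The p-values then reflect only how far these libraries differ among themselves, and that spread may be technical.

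Cyclins of the D type bind CDK4 or CDK6, and the active kinase phosphorylates the retinoblastoma protein and its relatives, which then release E2F factors that turn on genes for DNA replication. INK4 proteins bind the kinases and keep cyclins off, whereas p21 and p27 bind complexes of cyclin and kinase and block CDK2 above all. MYC forms a dimer with MAX that binds the E-box CACGTG. In other cells Cdk4 and Ccnd2 are known as genes that MYC activates, and Cdkn1a as a gene that MYC represses together with MIZ1. Resting lymphocytes are known for high p27.

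Because Myc was the gene removed, the promoters of the members were searched for the letters CACGTG, on both strands (the motif is its own reverse complement). RefSeq windows of GRCm38.p6 (mm10), reaching from 250 bases before to 50 bases after a gene start, were used for 7 of the 9 members, in 10 windows. Ccnd1 and Ccnd2 had no window, so their promoters were not searched. CACGTG stood in 3 of these 10 windows, belonging to Cdk4, Cdk6 and Cdkn2c, against 7.15% of all 32851 windows and 9.70% of the 12717 windows of genes in the deposited table. Cdk4 held it 4 times, with first bases at -172, -118, -98 and -11 relative to the start, and Cdk6 held 1 copy, at -220. Cdkn2c held 1 copy, at 35 after the more downstream of its starts. An E2F motif (TTTCCCGC, TTTCGCGC, TTTGCCGC or TTTGGCGC, both strands) was in 0 of the 10 windows in 2.26% of all windows and in 3.83% of those of genes in the table. The GC box GGGCGG (both strands), which can share letters with the E2F motif, was in 7 of the 10, in 35.7% of all windows and in 60.2% of those of genes in the table. The window of the upstream start of Cdkn1a held the paired core of a p53 site, which is CATG, any 6 bases and CATG (its own reverse complement), at -48. This pattern was chosen after the window had been read, and it is in 0.712% of all windows and in 0.330% of those of genes in the table. A match describes letters and does not show binding. The 250 bases before the start are printed for the gene with the most E-boxes (Cdk4), for the other kinase gene (Cdk6) and for the inhibitor gene that differed most between the groups (Cdkn1a). RefSeq starts can differ from the gene bounds given further on. Capitals mark the E-boxes in Cdk4 (chr10:127063285-127063534, plus strand) and Cdk6 (chr5:3343643-3343892, plus strand), and the p53 core pair in Cdkn1a (chr17:29090729-29090978, plus strand).
Cdk4: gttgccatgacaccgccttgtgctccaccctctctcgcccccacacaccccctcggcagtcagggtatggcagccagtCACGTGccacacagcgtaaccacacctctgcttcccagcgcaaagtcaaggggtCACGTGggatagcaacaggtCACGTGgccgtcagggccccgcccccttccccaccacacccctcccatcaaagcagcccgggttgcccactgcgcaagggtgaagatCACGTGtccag
Cdk6: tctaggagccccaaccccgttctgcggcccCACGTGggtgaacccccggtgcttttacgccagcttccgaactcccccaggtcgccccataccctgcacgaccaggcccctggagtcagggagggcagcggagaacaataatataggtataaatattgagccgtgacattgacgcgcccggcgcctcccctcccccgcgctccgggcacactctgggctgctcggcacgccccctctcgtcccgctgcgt
Cdkn1a: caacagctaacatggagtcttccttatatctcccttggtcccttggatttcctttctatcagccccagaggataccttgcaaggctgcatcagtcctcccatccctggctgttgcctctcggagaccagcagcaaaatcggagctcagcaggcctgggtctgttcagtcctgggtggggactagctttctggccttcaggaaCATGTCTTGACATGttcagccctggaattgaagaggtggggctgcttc

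Levels are given as RPKM, reads scaled to transcript length and to library size, so that genes can be compared per length. Reads in the listed genes came to 5451728 and 13337084 in MycKO 5 and 6, and to between 14290690 and 17610826 in controls. The reads behind single values of the 9 genes ran between 29 and 9464. Myc itself was at 12.5 and 8.70 RPKM in MycKO 5 and 6, against 13.0, 23.0 and 21.2 RPKM in controls 1, 2 and 3, and its difference did not pass (limma adjusted p = 0.297). Both MycKO libraries lay below every control, and since the value covers the whole gene it does not measure how complete the deletion was. The 10 NK markers, with Gzma the most abundant, summed to 9080 and 10776 RPKM in MycKO, against 11663 to 13304 RPKM in controls. Of these 10, 6 were lower in both MycKO libraries than in every control (10.4% of all genes tested) and 0 passed limma. At an unadjusted limma p under 0.05 there were 6 (13.2% of all genes). Called lower were 3 by limma-voom (0.241% of all genes) and 4 in the authors' deposited table (0.5% of all genes). Gzma was at 4699 and 5620 RPKM in MycKO and 6584 to 7251 RPKM in controls, and Ncr1, which encodes NKp46, at 633 and 744 RPKM in MycKO and 931 to 1619 RPKM in controls. The log2 fold change was negative for 7 of the 10 and positive for 3. Of those 3, Il2rb was at 821 and 851 RPKM in MycKO, above every control (736 to 801 RPKM). Klrb1c and Klrd1 overlapped, with log2 fold changes of 0.050 and 0.035. In these bulk samples, fewer cells of a type and less RNA per cell cannot be told apart.

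The tests asked which transcripts differ between the MycKO and the control libraries, whose labelled genotypes also differ in Cre. Of the 9 genes, 0 passed limma at an adjusted p under 0.05, where 1.34% of all genes tested passed (1.24% higher and 0.0983% lower in MycKO). At an unadjusted p under 0.05 there were 2, Cdk6 and Cdkn1a, beside 13.2% of all genes. Cdk6 was the 1 gene of the 9 called by limma-voom, which uses the reads behind the RPKM values (2.07% of all genes called, 1.83% higher), and the 1 called in the authors' deposited table (3.4% of all genes, 2.9% higher and 0.5% lower). The median log2 fold change of the 9 was 0.0068, and that of all genes tested was 0.048. In 5 of the 9 genes the groups did not overlap, against 29.1% of all genes. Ccnd1, Ccnd2, Cdk6 and Cdkn1a were higher in both MycKO libraries than in every control (18.8% of all genes), and Cdkn1b was lower (10.4% of all genes). The 3 genes with the largest fold changes, Cdkn1a, Cdk6 and Ccnd1, were also the 3 with the lowest RPKM. Low RPKM did not mean few reads for Cdk6, which had more reads than Cdkn2c in every library.

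**Figure D1:**
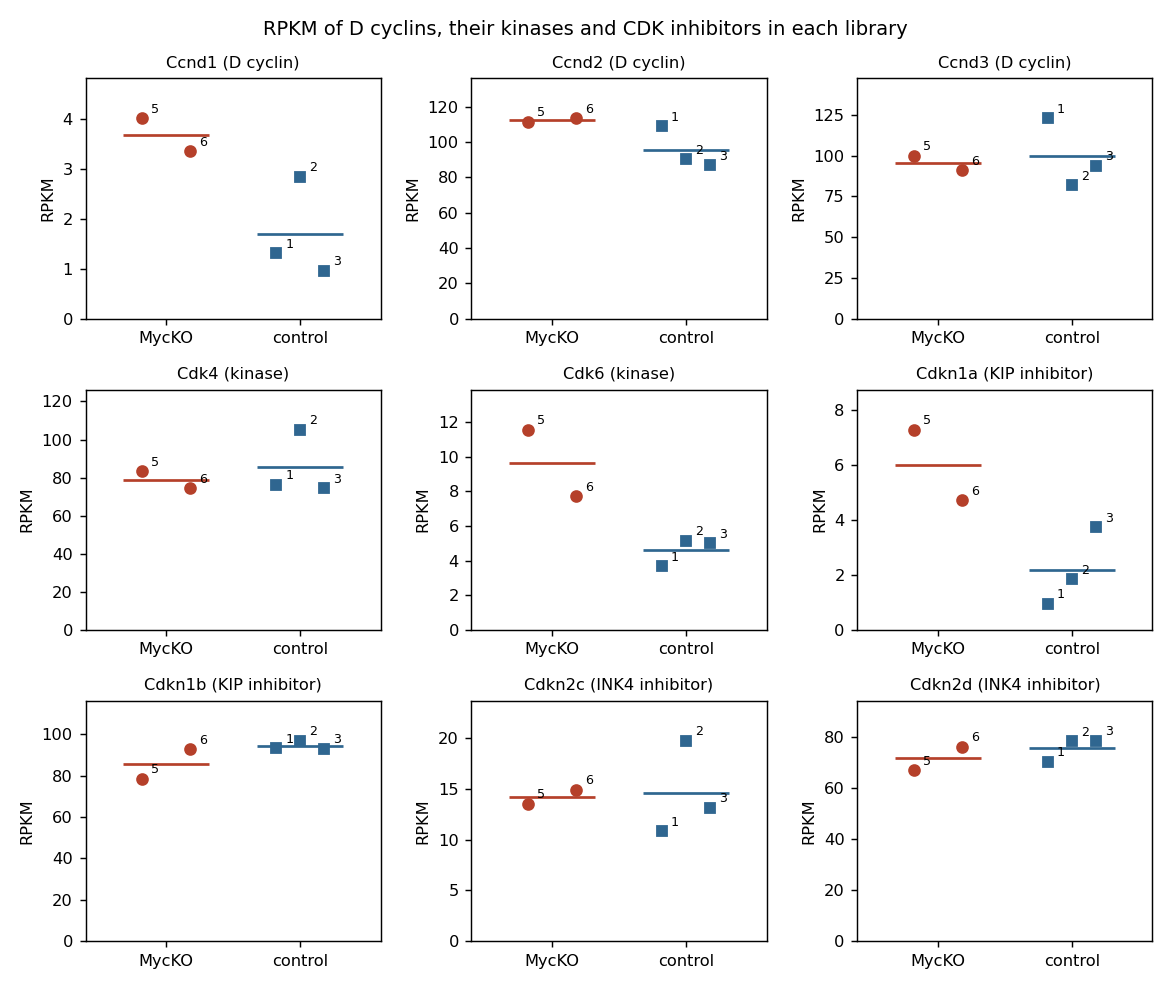
RPKM (vertical axes, each from 0) of the 9 genes in the 2 MycKO libraries (red circles) and the 3 control libraries (blue squares), with replicate numbers beside the points and a bar at each group mean. Cdk6, Cdkn1a, Ccnd1 and Ccnd2 lie higher in both MycKO libraries than in any control, and Cdkn1b lies lower. Ccnd3, Cdk4, Cdkn2c and Cdkn2d overlap.

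Ccnd2 and Ccnd3 were the abundant D cyclins of these cells. Ccnd2 (Entrez 12444; chromosome 6, 127125162 to 127152193, minus strand) was at 111 and 113 RPKM in MycKO 5 and 6, against 109, 90.2 and 86.9 RPKM in controls 1, 2 and 3. The MycKO libraries lay close together and above the controls, with control 1 just under them. Its log2 fold change on the log2(RPKM + 1) scale was 0.24 (SE 0.13, 95% interval -0.055 to 0.54), with a limma adjusted p of 0.506. Ccnd3 (Entrez 12445; chromosome 17, 47505051 to 47599691, plus strand) was at 100.1 and 91.1 RPKM in MycKO 5 and 6, against 123, 81.9 and 93.9 RPKM in controls. Both MycKO values fell inside the range of the controls. Its log2 fold change was -0.039 (SE 0.17, 95% interval -0.44 to 0.37, limma adjusted p = 0.965), and its sign turned without control 1 (0.12) and without MycKO 6 (0.028).

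Ccnd1, the D cyclin of many non-lymphoid cells, was at a far lower level. It (Entrez 12443; chromosome 7, 144929931 to 144939925, minus strand) was at 4.01 and 3.36 RPKM in MycKO 5 and 6, against 1.31, 2.84 and 0.958 RPKM in controls 1, 2 and 3. These values rest on 83 and 170 reads in MycKO, and on 75, 190 and 52 reads in controls. Both MycKO libraries lay above every control, with control 2 nearest to them. The exact Poisson 95% interval, which covers counting error only, was 2.87 to 3.90 RPKM in MycKO 6 and 2.45 to 3.28 RPKM in control 2, so these intervals overlapped. The mean was 3.68 ± 0.461 RPKM in MycKO (SD, n = 2) and 1.70 ± 1.00 RPKM in controls (SD, n = 3). The log2 fold change of 0.85 (SE 0.39, 95% interval -0.053 to 1.75) had a limma adjusted p of 0.411.

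By RPKM, the D cyclin pool was mainly Ccnd2 and Ccnd3 in each library. Ccnd2 gave 51.7% and 54.5% of it in MycKO 5 and 6, and 46.7%, 51.5% and 47.8% in controls 1, 2 and 3. Ccnd3 gave 46.5% and 43.9% in MycKO, and 52.7%, 46.8% and 51.7% in controls. Ccnd1 added 1.86% and 1.62% in MycKO, and 0.563%, 1.62% and 0.527% in controls. The MycKO libraries thus had more Ccnd2 than Ccnd3, as did control 2, and controls 1 and 3 had more Ccnd3. Summed D cyclin RPKM was 215 and 208 in MycKO 5 and 6, within the controls' range of 175 to 233.

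**Figure D2:**
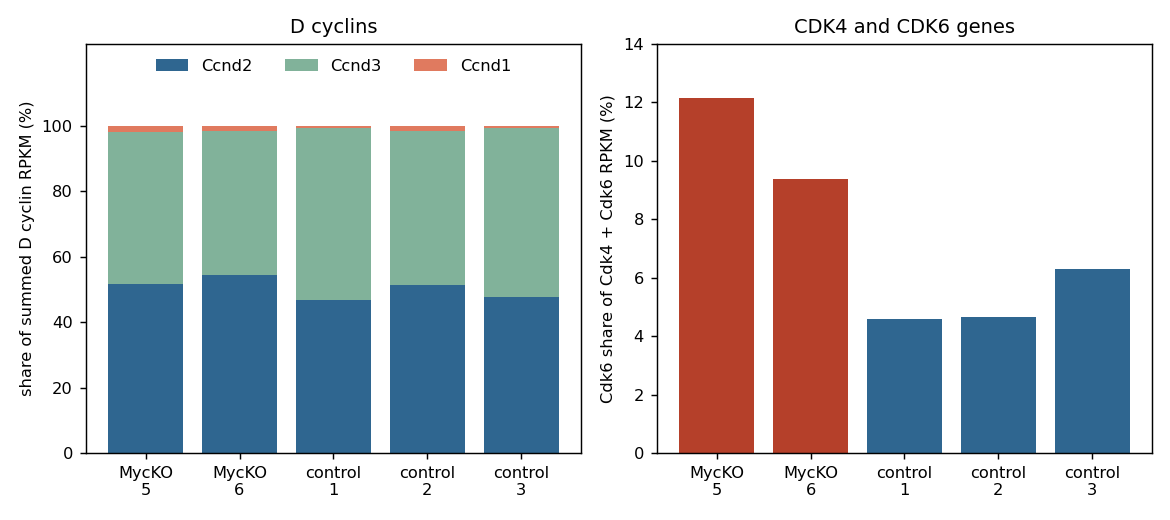
Left, share of the summed D cyclin RPKM (percent) from Ccnd2, Ccnd3 and Ccnd1 in each library. Right, Cdk6 as a share of Cdk4 plus Cdk6 RPKM (percent), at 12.2% and 9.39% in MycKO (red) and 4.58% to 6.30% in controls (blue).

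Cdk4 (Entrez 12567; chromosome 10, 127063534 to 127067920, plus strand) encodes the more abundant of the D cyclin kinases here, and its promoter with 4 E-boxes is printed above. It was at 83.5 and 74.4 RPKM in MycKO 5 and 6, against 76.2, 105 and 74.5 RPKM in controls 1, 2 and 3. MycKO 6 and controls 1 and 3 lay within 2 RPKM of each other, MycKO 5 was above them and control 2 was highest. With a log2 fold change of -0.095 (SE 0.17, limma adjusted p = 0.904) and a 95% interval of -0.49 to 0.30, Cdk4 did not pass, and the value turned to 0.064 without control 2. The summed RPKM of 14 markers of cycling cells was also highest in control 2, although the most abundant of them, the replication factor gene Pcna, was at 194 RPKM in MycKO 5 and 186 RPKM in control 2. The markers summed to 419 and 308 RPKM in MycKO 5 and 6, and to 228, 458 and 220 RPKM in controls 1, 2 and 3. Of these 14, 13 had a positive log2 fold change, 0 passed limma and 0 had an unadjusted p under 0.05, with limma-voom and the authors' deposited test also calling 0. Their part in the level of Cdk4 was not tested.

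Cdk6 (Entrez 12571; chromosome 5, 3341485 to 3531008, plus strand), the other D cyclin kinase gene, had the smallest p of the 9. It was at 11.6 and 7.71 RPKM in MycKO 5 and 6, against 3.66, 5.14 and 5.01 RPKM in controls 1, 2 and 3. Reads numbered 727 and 1186 in MycKO, and 635, 1043 and 826 in controls. Both MycKO libraries lay above every control, and MycKO 5 was the higher of them. The mean was 9.64 ± 2.72 RPKM in MycKO (SD, n = 2) and 4.60 ± 0.820 RPKM in controls (SD, n = 3), a ratio of 2.09. The log2 fold change was 0.91 (SE 0.28, 95% interval 0.26 to 1.56) and did not pass over all genes (limma adjusted p = 0.206). It passed in limma-voom, at 0.95 (SE 0.22, adjusted p = 0.0472), and in the authors' deposited table, at 1.00 (adjusted p = 0.00102). Over all 12 alternatives, with these among them, its adjusted p ran between 0.00102 and 0.772 and the difference was positive in each, at 0.65 without MycKO 5 and 1.18 without MycKO 6. As a share of Cdk4 plus Cdk6 RPKM, Cdk6 was 12.2% and 9.39% in MycKO 5 and 6, and 4.58%, 4.66% and 6.30% in controls 1, 2 and 3.

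Cdkn1a (Entrez 12575; chromosome 17, 29090976 to 29100727, plus strand) encodes p21, the inhibitor best known as a p53 target, and had the largest fold change of the 9. It was at 7.29 and 4.71 RPKM in MycKO 5 and 6, against 0.946, 1.84 and 3.74 RPKM in controls 1, 2 and 3. Reads numbered 81 and 128 in MycKO, and 29, 66 and 109 in controls. Both MycKO libraries lay above every control, but the controls themselves ranged widely, and the counting intervals of MycKO 6 (3.93 to 5.60 RPKM) and control 3 (3.07 to 4.52 RPKM) overlapped. The mean was 6.00 ± 1.82 RPKM in MycKO (SD, n = 2) and 2.18 ± 1.43 RPKM in controls (SD, n = 3). The log2 fold change was 1.21 (SE 0.43, 95% interval 0.20 to 2.22), with a limma adjusted p of 0.284. It did not pass in limma-voom (1.52, adjusted p = 0.34) or in the authors' deposited table (1.40, adjusted p = 0.558), and over all 12 alternatives the difference ran between 0.91 and 1.59.

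The MycKO libraries in which Cdk6, Ccnd1 and Cdkn1a were higher also had higher summed levels of marker genes of other cells. Of all genes tested, 1.24% passed limma as higher in MycKO, which is the share to set beside the calls of each list here. Of 14 myeloid markers, 13 were higher in both MycKO libraries than in every control (18.8% of all genes) and 11 passed limma. They summed to 2159 and 1681 RPKM in MycKO 5 and 6, and to 307 to 513 RPKM in controls, and the most abundant, the lysozyme gene Lyz2, was at 734 and 210 RPKM in MycKO and 55.1 to 220 RPKM in controls. The 10 T cell markers, with Cd3g the highest on average over the 5 libraries, summed to 161 and 228 RPKM in MycKO and to 60.7 to 83.8 RPKM in controls, and 3 of the 9 tested passed limma. Cd3g was at 62.0 and 75.9 RPKM in MycKO and 8.14 to 14.3 RPKM in controls. In controls most of the sum came from Cd28, at 24.5 and 25.3 RPKM in MycKO and 23.9 to 28.2 RPKM in controls, and Lef1, at 14.8 and 23.1 RPKM in MycKO and 20.5 to 23.8 RPKM in controls, and neither passed (limma adjusted p = 0.945 and 0.766). The 9 B and plasma cell markers, led by Jchain, summed to 352 and 685 RPKM in MycKO and to 90.4 to 143 RPKM in controls, and 1 passed. The 7 red cell and platelet markers, led by Car1, summed to 215 and 95.8 RPKM in MycKO and to 5.57 to 10.7 RPKM in controls, and 3 passed. The 6 basophil and mast cell markers, led by Mcpt8, summed to 62.9 and 9.53 RPKM in MycKO and to 3.46 to 4.88 RPKM in controls, where Mcpt8 was at 0. None of the 5 tested passed limma, with 2 at an unadjusted p under 0.05, 0 called by limma-voom and 1 in the authors' deposited table. The part of these cells in the levels of Cdk6, Ccnd1 and Cdkn1a was not tested.

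**Figure D3:**
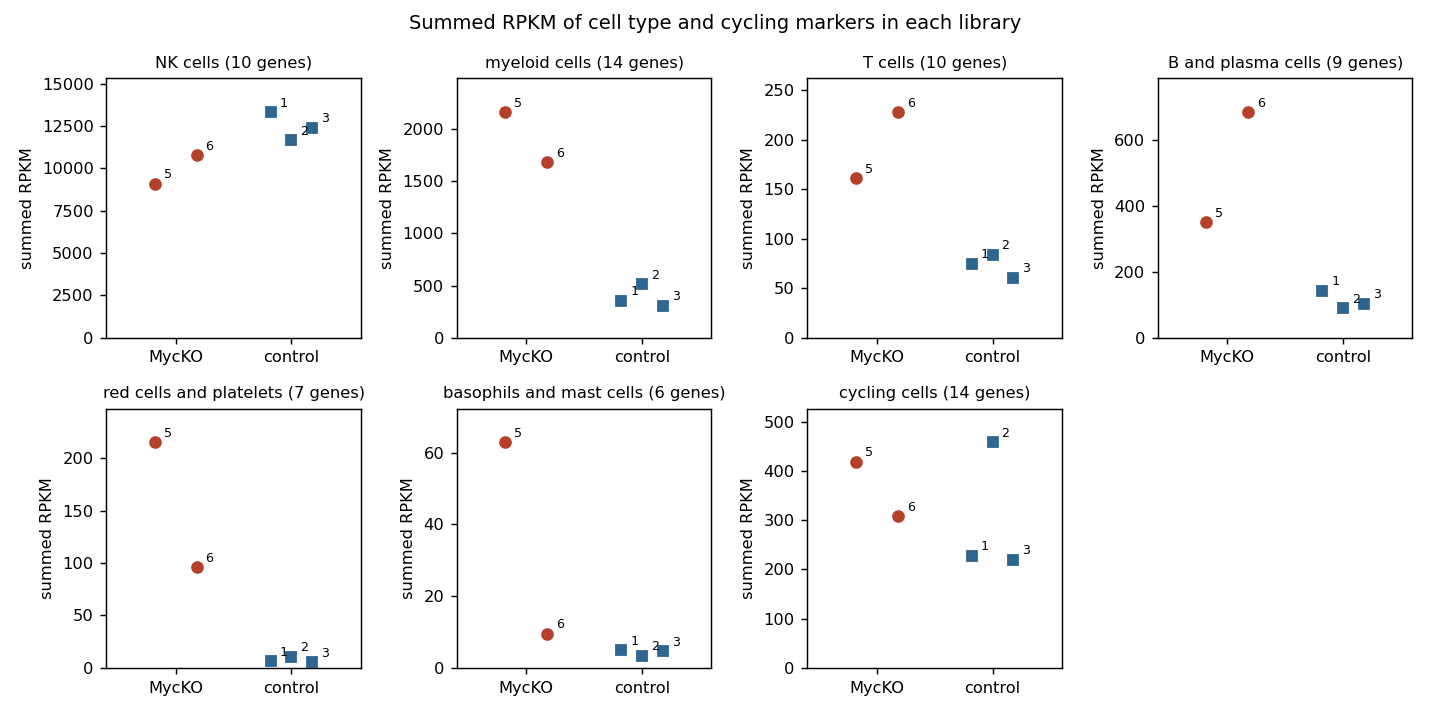
Summed RPKM (vertical axes, each from 0) of marker genes of NK cells, of other cell types and of cycling cells in the 2 MycKO libraries (red circles) and the 3 control libraries (blue squares). The myeloid sum is 2159 and 1681 in MycKO against at most 513 in controls, and the cycling sum is highest in control 2, at 458.

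Cdkn1b and Cdkn2d were the abundant inhibitor genes, and the difference of each was small. Cdkn1b (Entrez 12576; chromosome 6, 134920401 to 134925513, plus strand), which encodes the quiescence inhibitor p27, was at 78.4 and 92.8 RPKM in MycKO 5 and 6, against 93.3, 96.8 and 93.0 RPKM in controls 1, 2 and 3. Both MycKO libraries were below every control, but MycKO 6 lay within 1 RPKM of controls 1 and 3. The log2 fold change was -0.14 (SE 0.11, 95% interval -0.41 to 0.12, limma adjusted p = 0.703), and it was -0.024 without MycKO 5. Cdkn2d (Entrez 12581; chromosome 9, 21288410 to 21291407, minus strand), which encodes the INK4 protein p19, was at 67.1 and 76.3 RPKM in MycKO 5 and 6, against 70.4, 78.6 and 78.7 RPKM in controls. The groups overlapped, and the log2 fold change was -0.082 (SE 0.12, 95% interval -0.36 to 0.19, limma adjusted p = 0.869).

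Cdkn2c (Entrez 12580; chromosome 4, 109660876 to 109667189, minus strand), which encodes the INK4 protein p18, was at a middle level. It was at 13.6 and 14.9 RPKM in MycKO 5 and 6, against 10.9, 19.8 and 13.2 RPKM in controls 1, 2 and 3. The MycKO libraries lay between the controls, and control 2, where the summed cycling markers were highest, was highest here too. A log2 fold change of 0.0068 (SE 0.26, 95% interval -0.59 to 0.61, limma adjusted p = 0.997) turned sign under other scalings. Summed over the 4 inhibitor genes, RPKM was 166 and 189 in MycKO and 176, 197 and 189 in controls. Divided by summed D cyclin RPKM this gave 0.772 and 0.909 in MycKO 5 and 6, inside the controls' range of 0.753 to 1.13.

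**Figure D4:**
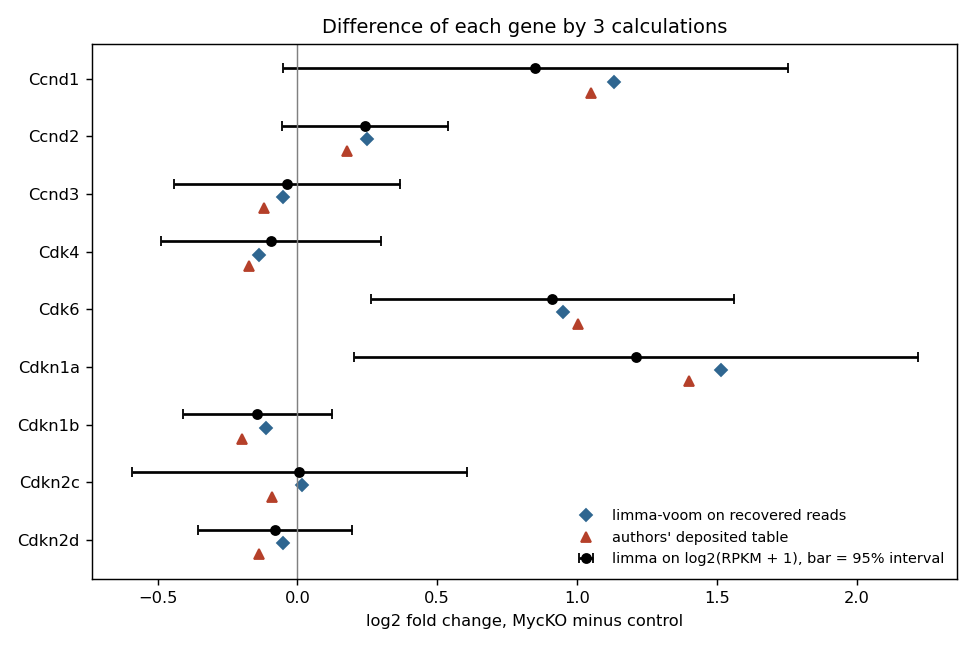
Log2 fold change (MycKO minus control, horizontal axis) of the 9 genes by limma on log2(RPKM + 1) with its 95% interval (black), by limma-voom (blue diamonds) and in the authors' deposited table (red triangles). The black interval lies above 0 for Cdk6 (0.26 to 1.56) and Cdkn1a (0.20 to 2.22) before adjustment, and spans 0 for the other 7.

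The order of levels per length was similar in both groups. In MycKO it ran Ccnd2, Ccnd3, Cdkn1b, Cdk4, Cdkn2d, Cdkn2c, Cdk6, Cdkn1a and Ccnd1, with means between 112 and 3.68 RPKM. In controls it began with Ccnd3 (99.5 RPKM) and Ccnd2 (95.3 RPKM) and then had the same sequence down to Ccnd1 (1.70 RPKM). Neighbours among the 5 most abundant genes overlapped in their ranges over libraries in both groups, except Ccnd2 and Ccnd3 in MycKO. Cdkn2d and Cdkn2c did not overlap in either group. Cdk6, Cdkn1a and Ccnd1 were separate from each other in MycKO, whereas in controls Cdk6 overlapped with Cdkn1a and Cdkn1a with Ccnd1. Among all 13004 genes, mean RPKM placed the 5 abundant members between percentile 93.0 and percentile 95.3, Cdkn2c at 61.5, Cdk6 at 42.6, Cdkn1a at 32.2 and Ccnd1 at 26.3.

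Reads of some members may be shared with neighbours on the opposite strand, since the library kit kept strand but the sources do not say whether counting used it. In GENCODE vM21, an exon of Cdk4 shared 641 bases with an exon of Tspan31, and one of Ccnd3 shared 361 bases with Bysl. The longest overlap was that of Ccnd1, which shared 818 bases with an exon of the protein-coding gene LTO1. The deposited table does not list this symbol, and other names of the gene were not searched. Exons of Ccnd2, Cdk6 and Cdkn1a also overlapped an exon on the other strand, and those of Cdkn1b, Cdkn2c and Cdkn2d overlapped none. Ccnd3 has an annotated processed pseudogene, Ccnd3-ps, on chromosome 4.

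For the 6 members with a mean of at least 3 on the log2(RPKM + 1) scale, the genes with the most similar profile over the 5 libraries were sought among 7030 genes of that level, by the root mean square difference of values centred on each gene's mean. Nearest to Ccnd2 were Zmpste24 (0.016) and Laptm4a (0.022), and nearest to Ccnd3 were Zfp644 (0.032) and Ccdc71l (0.034). Cdk4 was most like Recql5 (0.011) and Man2b2 (0.035). Cdkn1b lay nearest to Tmed7 (0.027) and Pramef8 (0.028), Cdkn2c to Utp18 (0.047) and Echs1 (0.064), and Cdkn2d to Ell (0.016) and Grk6 (0.023). With 5 libraries, many genes can resemble each other in this way.

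Of the other genes that act with D cyclins and inhibitors at the step from G1 to S phase, 13 of 15 were tested. None passed limma, limma-voom or the authors' deposited test, and 1 had an unadjusted p under 0.05, beside 13.2% of all genes. For this list and those that follow, the 3 genes with the smallest p are described. In MycKO 10 were higher and 3 were lower, with a median log2 fold change of 0.35 against 0.048 for all genes. Of all 11190 genes tested, 6390 were higher and 4800 were lower. Skp2, whose product marks p27 for destruction, was at 4.03 and 2.66 RPKM in MycKO 5 and 6, against 0.818, 1.51 and 0.636 RPKM in controls 1, 2 and 3. Its groups did not overlap, and its log2 fold change was 1.13 (SE 0.37, limma adjusted p = 0.238). Ambra1, whose product marks D cyclins for destruction, was at 13.4 and 13.1 RPKM in MycKO, against 8.32, 10.02 and 10.4 RPKM in controls, also with no overlap (0.44, SE 0.20, limma adjusted p = 0.399). The cyclin E gene Ccne1 was at 14.8 and 8.39 RPKM in MycKO and 3.36, 10.3 and 3.72 RPKM in controls. It overlapped through control 2 (0.99, SE 0.46, limma adjusted p = 0.419).

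All 18 genes of pocket proteins, E2F and DP factors and the DREAM complex were tested. None passed limma, limma-voom or the authors' deposited test, and 2 had an unadjusted p under 0.05, beside 13.2% of all genes. In MycKO 11 were higher and 7 were lower, with a median of 0.19. E2f1, an activator of replication genes, was at 5.91 and 3.41 RPKM in MycKO 5 and 6, against 0.0643, 1.32 and 1.51 RPKM in controls 1, 2 and 3, the first of these from 3 reads. Both MycKO libraries lay above every control, with a log2 fold change of 1.59 (SE 0.48, limma adjusted p = 0.199). E2f6, a repressor, was at 13.1 and 9.58 RPKM in MycKO, against 5.80, 6.91 and 5.89 RPKM in controls (0.77, SE 0.23, limma adjusted p = 0.209). Rb1, the retinoblastoma gene and the substrate of the D cyclin kinases, was at 18.1 and 15.4 RPKM in MycKO and 12.3, 17.0 and 11.6 RPKM in controls, where control 2 lay between the MycKO values (0.29, SE 0.21, limma adjusted p = 0.676).

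Beside Cdkn1a, 17 of 18 further genes of the p53 pathway were tested. None passed limma, limma-voom or the authors' deposited test, and 3 had an unadjusted p under 0.05, beside 13.2% of all genes. In MycKO 9 were higher and 8 were lower, with a median of 0.0045. Pmaip1, which encodes the death-promoting protein NOXA, was at 10.7 and 9.03 RPKM in MycKO 5 and 6, against 3.68, 6.46 and 4.61 RPKM in controls 1, 2 and 3 (0.90, SE 0.28, limma adjusted p = 0.213). The sestrin genes, whose products restrain mTORC1, had fold changes of opposite sign. Sesn1 was at 32.9 and 41.5 RPKM in MycKO and 48.7, 52.2 and 49.5 RPKM in controls (-0.43, SE 0.14, limma adjusted p = 0.231). Sesn2 was at 6.56 and 5.33 RPKM in MycKO and 3.83, 2.69 and 3.37 RPKM in controls (0.70, SE 0.28, limma adjusted p = 0.344). The groups of these 3 genes, picked by smallest p, did not overlap. Of the 17 tested, 4 were higher without overlap (18.8% of all genes) and 4 were lower (10.4% of all genes).

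Of transcription factors, kinases and other proteins known to set the level of D cyclins or KIP inhibitors, 17 of 17 were tested and none passed limma or limma-voom. At an unadjusted p under 0.05 there were 2, beside 13.2% of all genes. The authors' deposited test called 1, Klf2, as lower (0.5% of all genes). In MycKO 6 were higher and 11 were lower, with a median of -0.082. Klf2, a factor that keeps lymphocytes quiescent, was at 156 and 185 RPKM in MycKO 5 and 6, against 277, 216 and 226 RPKM in controls 1, 2 and 3. Both MycKO libraries lay below every control, with a log2 fold change of -0.49 (SE 0.14, limma adjusted p = 0.183, and -0.55 with an adjusted p of 0.0302 in the authors' deposited table). Tob1, an antiproliferative gene, was at 13.2 and 15.2 RPKM in MycKO and 24.4, 23.8 and 19.5 RPKM in controls, also without overlap (-0.63, SE 0.17, limma adjusted p = 0.161). Klf4, known to raise p21 in other cells, was at 10.4 and 4.16 RPKM in MycKO and 3.84, 3.66 and 0.758 RPKM in controls (1.17, SE 0.55, limma adjusted p = 0.425). Myeloid cells are known to express Klf4, and the myeloid markers given above were higher in the same libraries; their part in these levels was not tested.

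**Figure D5:**
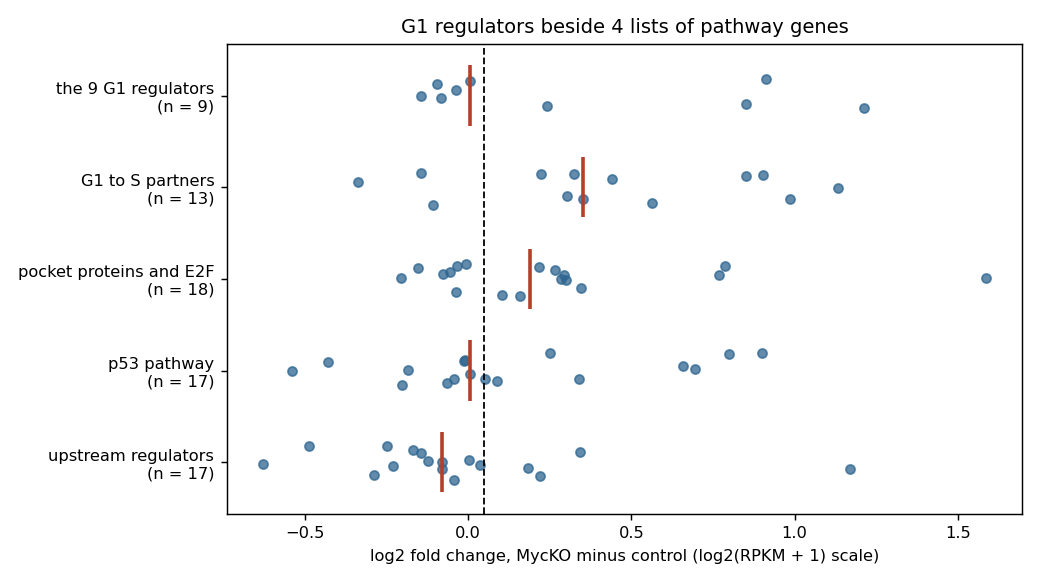
Log2 fold change (MycKO minus control, log2(RPKM + 1) scale, horizontal axis) of each tested gene in the 9 G1 regulators and in 4 lists of pathway genes. Red lines are list medians (0.0068, 0.35, 0.19, 0.0045 and -0.082, top to bottom) and the dashed line is the median of all genes tested, 0.048.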

How the data were processed

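Sorted splenic NK cells were profiled by strand-specific single-read RNA sequencing, per the labels' protocols. The submitters' processing notes list TopHat, edgeR and the build mm10, and give neither what each program did nor its version. Annotation, counting tool and use of strand are not stated. Per the file headers, the deposited table gives RPKM per sample, the authors' mean normalized signal, the fold change as a ratio and as log2, and a p-value with its adjusted form from a test that is not named. It holds no counts, so the test planned for RPKM was used.

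RPKM was analysed as log2(RPKM + 1) for genes that reached 1 RPKM in 2 or more samples. limma 3.58.1 in R 4.3.3, with a variance trend, compared MycKO with control over all 5 samples. Tests were two-sided, and p-values were adjusted by Benjamini-Hochberg over all 11190 genes tested, at a threshold of 0.05. Reads were recovered from RPKM and the authors' group means; 100.0% of values were whole within 0.0001 of a read. No pair of libraries agreed within counting noise (chi-square per degree of freedom of at least 17.5). Positions are from GENCODE vM21 and promoter sequences from RefSeq, both on GRCm38.

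The members and lists were chosen with earlier results of these data known. Named beyond the 9 members are the 3 genes with the smallest p of each pathway list, the most abundant marker of each cell type, the 2 genes with the nearest profile (predicted genes, Rik clones and pseudogenes left out), and Myc and Ncr1. A few genes were also singled out after their values or positions were seen (Cd28, Lef1, Il2rb, Klrb1c, Klrd1, Tspan31, Bysl, LTO1, Ccnd3-ps). Alternatives were 2 other scalings, dropping the filter, filtering at 5 CPM, changing the pseudocount to 0.1, limma-voom, the authors' test and leaving out each library. The procedure was tested on simulated data. Figures used matplotlib 3.10.9.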

Additional observations from a re-analysis of the deposited data

How the results depend on the processing

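Of 108 comparisons of the 9 genes with 12 alternatives, 96 kept the direction and the side of the threshold. Cdk6 passed in limma-voom and in the authors' deposited table, which made the number of members called 1 in each, against 0 in limma. Sign turned for 4 genes with differences near 0. Ccnd3 ran between -0.17 and 0.12, Cdk4 between -0.18 and 0.064, and Cdkn2d between -0.17 and 0.010 with a library left out. Cdkn2c was at -0.043 under median-of-ratios scaling, -0.034 under upper-quartile scaling and -0.092 in the authors' deposited table, and ran between -0.17 and 0.23 with a library left out. Over all genes, the number called was 150 in limma, 80 with a pseudocount of 0.1, 232 in limma-voom and 442 in the authors' deposited test, and it ran between 34 and 217 with a library left out. Among the upstream regulators the authors' deposited test called 1 gene, against 0 in limma. Among the other named genes, Jchain lost its limma call when control 3 (adjusted p = 0.105) or MycKO 6 (adjusted p = 0.101) was left out. With 1 MycKO library left, that library was assumed to vary like the controls. The distance of Cdk4 and Recql5, a comparison added after seeing the data, was 0.026 with a pseudocount of 0.1. The cause of these shifts was not tested. No paired analysis was possible because the groups share no replicate number. Few reads (29 to 190) lie behind values of Ccnd1 and Cdkn1a, and 2 MycKO libraries limit every comparison.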
